A study of Mus musculus with 17 samples.

Results

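Nuclear genes of oxidative phosphorylation were followed in the hippocampus of Dp16, Dp16_2xIFNRs and WT mice, by polyA RNA-seq with 1 library per mouse. They were chosen by name among protein-coding genes, without assembly factors and pseudogenes. The names were Nduf (families a, b, c, s and v), Sdha to Sdhd, Uqcr, Cox4 to Cox8 followed by a, b or c, and Atp5. No Cox4 gene met this pattern. The pattern found 83 of the 55385 gene records, of which 37 are named for complex I, 4 for complex II, 8 for complex III, 16 for complex IV and 18 for complex V. Of these, 80 had enough reads to be tested. The untested records were Cox7b2, with 101 counts over all libraries, Cox8c, with 0 counts, and a second Atp5o record, also with 0 counts. Dp16 mice (n = 6, 3 females and 3 males) carry an extra copy of a segment of chromosome 16, from Lipi to Zbtb21, and serve as a model of Down syndrome. Dp16_2xIFNRs mice (n = 5, 3 females and 2 males) carry the same duplication, except that the interferon receptor genes inside it are back at their normal copy number. WT mice (n = 6, 3 females and 3 males) were C57BL/6J. All mice were untreated adults aged 17.1 to 18.0 weeks, and the labels do not say which were littermates. Both mutant lines carry the duplication in the germline, and RNA was read from whole tissue.

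Oxidative phosphorylation couples the burning of fuel to the making of ATP in the inner mitochondrial membrane. Complex I (NADH dehydrogenase) and complex II (succinate dehydrogenase) pass electrons to complex III (cytochrome bc1), which passes them through cytochrome c to complex IV (cytochrome c oxidase). Complexes I, III and IV pump protons, and complex V (ATP synthase) lets them flow back to drive ATP synthesis. Most subunits are encoded in the nucleus and some in mitochondrial DNA. Neurons depend heavily on the pathway to restore ion gradients after firing. The pattern misses a few nuclear subunits or partners with other names (Ndufab1, Cox4i1, Cox4i2, Cyc1, Cycs and Cyct), which were counted apart.

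Only a pair of members lies in the duplicated segment, and both belong to the ATP synthase: Atp5j (F6) and Atp5o (OSCP), which both sit in the stalk that holds the catalytic head still. Atp5j (ENSMUSG00000022890.13, chr16:84827866-84835625, minus strand, GRCm38) starts head to head with Gabpa, the DNA-binding subunit of GABP. GABP, also called nuclear respiratory factor 2, is a regulator of genes of oxidative phosphorylation. The annotated bodies of Atp5j and Gabpa overlap by 701 bases on opposite strands. Atp5o (ENSMUSG00000022956.11, chr16:91925214-91931687, minus strand) overlaps the unread second Atp5o record by 1769 bases on the same strand. Their RefSeq promoter windows (GRCm38.p6, 250 bases before to 50 after the start) are shown because they belong to the members with a changed gene dose. Those of Cox8a and Cox8b are shown beside them as a ubiquitous and a tissue-restricted form of the same complex IV subunit. Capitals mark matches on either strand to 4 motifs: CCGGAAG (the core bound by GABP and other ETS factors), GCGCNTGCG (NRF1), AAGATGGCG (YY1) and TATAAA, a core promoter element known as the TATA box. None of the 4 contains another.
Atp5j, chr16:84834927-84835226, minus strand: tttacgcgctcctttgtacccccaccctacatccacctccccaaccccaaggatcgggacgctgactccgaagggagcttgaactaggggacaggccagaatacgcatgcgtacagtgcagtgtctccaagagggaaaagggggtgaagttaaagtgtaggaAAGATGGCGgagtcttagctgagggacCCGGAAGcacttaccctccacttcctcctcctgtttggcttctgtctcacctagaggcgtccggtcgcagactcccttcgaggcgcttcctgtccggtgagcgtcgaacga
Atp5o, chr16:91931581-91931880, minus strand: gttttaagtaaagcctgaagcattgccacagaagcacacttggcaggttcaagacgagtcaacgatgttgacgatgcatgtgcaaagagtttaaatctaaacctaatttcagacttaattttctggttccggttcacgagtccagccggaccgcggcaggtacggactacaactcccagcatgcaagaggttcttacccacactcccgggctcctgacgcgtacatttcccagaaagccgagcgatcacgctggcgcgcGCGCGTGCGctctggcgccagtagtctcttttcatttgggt
Cox8a, chr19:7217567-7217866, minus strand: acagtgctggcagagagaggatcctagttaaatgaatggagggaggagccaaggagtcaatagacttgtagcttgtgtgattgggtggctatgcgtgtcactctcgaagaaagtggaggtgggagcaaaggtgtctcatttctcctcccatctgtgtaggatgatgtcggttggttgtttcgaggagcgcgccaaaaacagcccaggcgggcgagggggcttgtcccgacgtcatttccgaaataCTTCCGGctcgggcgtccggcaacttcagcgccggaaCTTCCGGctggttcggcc
Cox8b, chr7:140900397-140900696, minus strand: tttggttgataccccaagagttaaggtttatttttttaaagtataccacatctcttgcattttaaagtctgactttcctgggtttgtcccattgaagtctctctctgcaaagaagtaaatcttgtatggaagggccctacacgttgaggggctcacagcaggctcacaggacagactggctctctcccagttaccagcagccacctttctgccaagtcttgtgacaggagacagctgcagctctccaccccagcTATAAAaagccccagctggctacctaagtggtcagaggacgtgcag

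The Atp5j window was picked as one that overlaps the Gabpa window, so the 247 bases they share follow from that choice. The Atp5j window held 1 ETS core and 1 YY1 match. The Atp5o window held 1 NRF1 match, Cox8a 2 ETS cores, both on the other strand, and Cox8b a TATA box and none of the other 3 motifs. Promoter windows were found for 68 of the 82 member symbols, 73 windows in all. The ETS core was in 23.3% of the member windows, against 8.86% of all 32851 mouse windows. The NRF1 motif was in 34.2% of the member windows, against 6.31% of all windows. The YY1 motif was in 9.59% against 1.4%, and the TATA box in 12.3% against 13.6%. Either the ETS core or the NRF1 motif was in windows of 34 of the 68 members. These are matches of letters, not measured binding.

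The members were among the most abundant RNAs of the tissue. On the RPKM scale, which corrects for gene length, the median member had 88.4 (mean of 17 libraries), higher than 97% of tested genes, whose median was 4.38. By complex, median RPKM was 68.7 for complex I, 70.3 for complex II, 136 for complex III, 131 for complex IV and 143 for complex V. The highest were Atp5b, the catalytic beta subunit of the ATP synthase, at 572 RPKM, and the complex IV subunits Cox8a at 548 RPKM and Cox6a1 at 431 RPKM. In complex I the highest was Ndufa4 at 229 RPKM. Its product, first described with complex I, is now placed in complex IV. Sdha, the flavoprotein that oxidizes succinate, led complex II at 144 RPKM, and Uqcr10 led complex III at 221 RPKM. On this scale, the lowest tested members of each complex were Ndufa4l2 (2.34 RPKM), Sdhc (23.7 RPKM), Uqcrq (62.0 RPKM), Cox7a1 (2.76 RPKM) and Atp5g1 (20.9 RPKM). The value of Atp5g1 depends on an implied length of 4912 bases, as it averaged 103 counts per M (CPM). Uqcrq, with 1827 bases, averaged 113 CPM. The 13 subunits encoded in mitochondrial DNA had a median of 416 RPKM, with mt-Co1, the core subunit of complex IV, at 10717 RPKM. They ran down to 4.85 RPKM for mt-Atp8, so the median stands for a very wide range, whose cause was not tested.

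**Figure D1:**
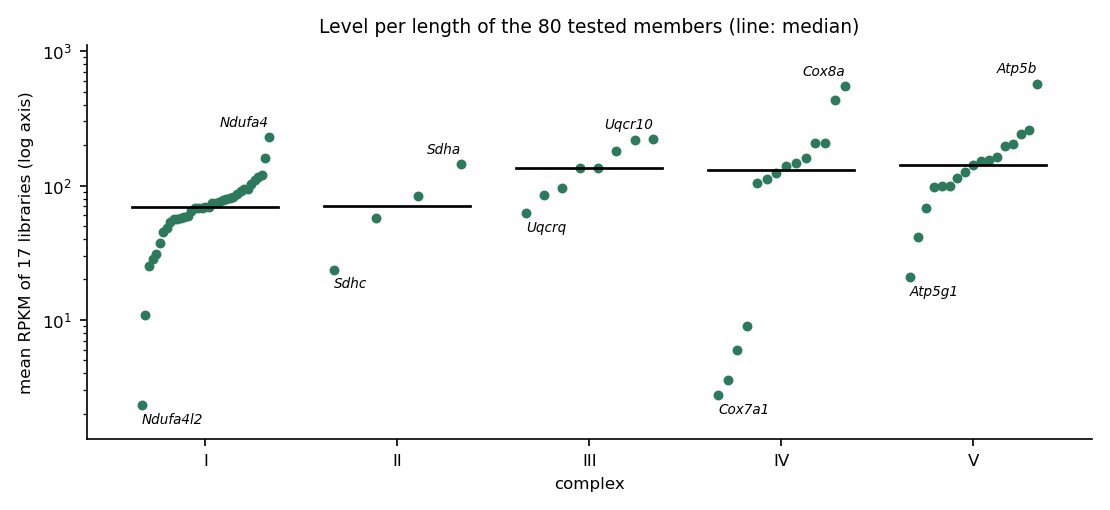
Mean RPKM over 17 libraries (log axis) of each of the 80 tested members, sorted within its complex; each point is a gene and each line the median of the complex. Medians were 68.7 RPKM in complex I and 143 RPKM in complex V, and the lowest points of complexes I and IV are the tissue-restricted isoforms.

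In 4 families of subunits with several tested genes, nearly all RNA came from 1 form. Cox7b likewise made up 99.7% of the summed RPKM of its pair with Cox7b2, which had too few reads to be tested. Cox6a1 made up 98.6% of the summed RPKM of the Cox6a pair, Cox6b1 98.3% of the Cox6b pair, Cox8a 98.4% of the Cox8 family and Ndufa4 99.0% of the Ndufa4 and Ndufa4l2 pair (means of 17 libraries). Cox6a2 and Cox7a1, the forms typical of heart and muscle, had 5.93 and 2.76 RPKM. Among the genes named Cox7a, Cox7a2 took 53.3% (123 RPKM) and Cox7a2l took 45.5% (105 RPKM), against 1.19% for Cox7a1 (2.76 RPKM). These genes were grouped by name alone, so the shares do not show that Cox7a2l is an interchangeable form of the same subunit. The 3 genes Atp5g1, Atp5g2 and Atp5g3 encode the same mature c subunit of the ATP synthase ring. Atp5g3 made up 73.3% of their summed RPKM, Atp5g2 20.4% and Atp5g1 6.31%. These shares depend on the implied gene lengths, which were 724 bases for Atp5g3, 731 for Atp5g2 and 4912 for Atp5g1. Without length correction, the means were 177 CPM for Atp5g3, 49.6 CPM for Atp5g2 and 103 CPM for Atp5g1, so Atp5g1 then ranked above Atp5g2. The share of Atp5g3 was 73.8% ± 0.907 in Dp16 (SD, n = 6), 72.9% ± 0.642 in Dp16_2xIFNRs (n = 5) and 73.0% ± 0.627 in WT (n = 6), so the group ranges of 1 SD around the mean overlapped. Reads of near-identical family members and of their pseudogenes may have been split in the counting.

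Both ATP synthase genes of the duplicated segment rose in both mutant lines, and no other member was called in the edgeR fit. Atp5j had 182, 200 and 208 CPM (counts per M, mega; lowest, median and highest) in Dp16. It had 221, 172, 181, 181 and 194 CPM in Dp16_2xIFNRs, against 122, 136 and 144 CPM in WT. Every mouse with the duplication lay above every WT mouse, and the mutant lines overlapped each other. The log2 fold change of Atp5j was 0.56 ± 0.06 (SE) in Dp16 against WT (1.48-fold, edgeR adjusted p = 8.07e-06 over 18983 genes) and 0.50 ± 0.06 in Dp16_2xIFNRs against WT (1.42-fold, edgeR adjusted p = 8.96e-05). Atp5o had 161, 194 and 204 CPM in Dp16. It had 208, 160, 172, 179 and 203 CPM in Dp16_2xIFNRs, against 130, 137 and 150 CPM in WT. Again no mutant mouse overlapped the WT range. The log2 fold change of Atp5o was 0.46 ± 0.06 in Dp16 against WT (1.37-fold, edgeR adjusted p = 0.000315) and 0.41 ± 0.07 in Dp16_2xIFNRs against WT (1.33-fold, edgeR adjusted p = 0.00189). Between Dp16_2xIFNRs and Dp16, the log2 differences were -0.06 ± 0.06 for Atp5j (edgeR adjusted p = 0.741) and -0.04 ± 0.07 for Atp5o (edgeR adjusted p = 0.839). Members called higher numbered 2 of 80 in each comparison with WT, where 0.464% of all tested genes were called higher in Dp16 and 0.648% in Dp16_2xIFNRs. The same 2 were the members whose groups did not overlap upwards, where the share over all tested genes was 0.716% in Dp16 and 1.2% in Dp16_2xIFNRs. No member lay wholly below WT, where that share was 0.274% in Dp16 and 0.969% in Dp16_2xIFNRs.

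**Figure D2:**
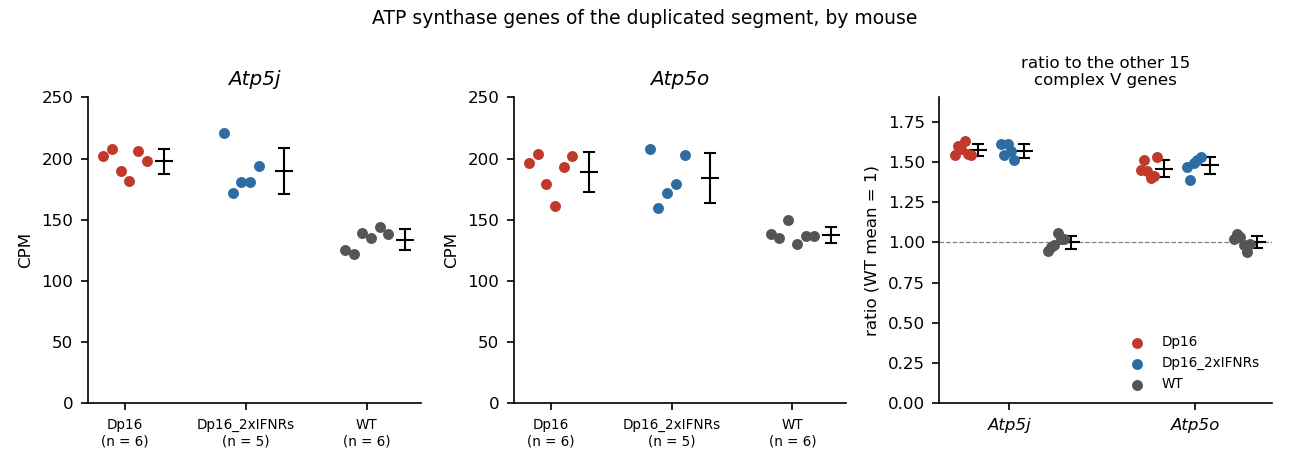
CPM of Atp5j and Atp5o in each mouse (left and centre) and the ratio of each to the geometric mean of the other 15 tested complex V genes, with the WT mean set to 1 (right); points are mice, and bars are mean and SD. All Dp16 and Dp16_2xIFNRs mice lie above all WT mice, at ratios of 1.39 to 1.63, against 0.942 to 1.06 in WT.

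Set against their own complex, the excess of both genes varied little between mice of a genotype. The ratio of Atp5j to the other 15 tested complex V genes, with the WT mean at 1, was 1.57 ± 0.0367 in Dp16 (SD, n = 6), 1.57 ± 0.0438 in Dp16_2xIFNRs (n = 5) and 1.00 ± 0.0407 in WT (n = 6). That of Atp5o was 1.46 ± 0.0528 in Dp16, 1.48 ± 0.054 in Dp16_2xIFNRs and 1.00 ± 0.0388 in WT. These ratios exceed the fold changes against WT, because the other 15 genes were themselves slightly lower in the mutant lines. Their mean log2 CPM minus WT was -0.0898 ± 0.0966 in Dp16 and -0.149 ± 0.135 in Dp16_2xIFNRs (SD). The partners of Atp5j and Atp5o in the ATP synthase were not called. Atp5b had 1031, 1135 and 1144 CPM in Dp16. It had 1134, 956, 971, 1009 and 1075 CPM in Dp16_2xIFNRs, against 1025, 1152 and 1202 CPM in WT, so that all 3 groups overlapped. Its log2 fold change was -0.02 ± 0.05 in Dp16 against WT (edgeR adjusted p = 0.937) and -0.14 ± 0.06 in Dp16_2xIFNRs against WT (edgeR adjusted p = 0.236). Ndufb4, a complex I accessory subunit on chromosome 16 outside the segment, was named after its values were seen. It had 45.1, 57.0 and 59.2 CPM in Dp16. It had 62.2, 45.9, 47.6, 51.0 and 62.1 CPM in Dp16_2xIFNRs, against 50.6, 58.6 and 65.9 CPM in WT, again with overlap. Ndufv3, an accessory subunit whose human counterpart lies on the chromosome that is trisomic in Down syndrome, is on chromosome 17 in the mouse. Its log2 fold change was -0.09 ± 0.07 in Dp16 against WT (edgeR adjusted p = 0.712) and -0.08 ± 0.07 in Dp16_2xIFNRs against WT (edgeR adjusted p = 0.613).

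Outside the segment, no member passed the test in Dp16 against WT, and most fold changes were slightly negative. Of the 78 other tested members, 68 had a negative log2 fold change and 10 a positive one, with a median of -0.09, where the median over all tested genes was -0.01. Called lower were 0 members by edgeR, DESeq2 and limma-voom alike, where edgeR called 0.0843% of all genes lower. At an unadjusted p under 0.05, 10 members were lower, against 3.85% of all genes, and 2 were higher (Atp5j and Atp5o), against 5.57% of all genes. The median log2 fold change was -0.09 in complex I, -0.02 in complex II, -0.05 in complex III, -0.10 in complex IV and -0.08 in complex V without Atp5j and Atp5o. The extremes with a mean of at least 1 CPM stood as follows. In complex I, Ndufs1, an iron-sulfur core subunit, had 0.07 ± 0.05 (edgeR adjusted p = 0.695) and Ndufa2, an accessory subunit, -0.18 ± 0.12 (edgeR adjusted p = 0.68). In complex II, Sdha had 0.07 ± 0.05 and Sdhc, a membrane anchor, -0.06 ± 0.06. In complex III, Uqcrc2, a core protein, had 0.00 ± 0.05 and Uqcrh, the hinge protein beside cytochrome c1, -0.15 ± 0.07. In complex IV, Cox5a, a matrix-side subunit, had -0.05 ± 0.06 and Cox7a1 -0.57 ± 0.31. In complex V, the small epsilon subunit Atp5e had -0.24 ± 0.09 (edgeR adjusted p = 0.393). The count of 10 depended on single mice. Without Dp16 replicate 4 or WT replicate 5 it was 4, against 2.8% and 2.96% of all genes. Without Dp16 replicate 3 or WT replicate 3 it was 5, against 4.63% and 3.23%. It was 16 without WT replicate 2 (4.18% of all genes) and 18 without Dp16 replicate 5 (4.36%).

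In Dp16_2xIFNRs against WT, edgeR called no member outside the segment either. Of the 78 members outside the segment, 77 had a negative log2 fold change, with a median of -0.16, where the median over all tested genes was 0.00. By complex, the median was -0.15 in complex I, -0.10 in complex II, -0.14 in complex III, -0.18 in complex IV and -0.14 in complex V without Atp5j and Atp5o. Members called lower were 0 by edgeR and limma-voom and 4 by DESeq2 (Ndufb2, Ndufa8, Cox8a and Atp5g2, with log2 fold changes of -0.21 to -0.25 there), where edgeR called 0.374% of all genes lower and DESeq2 1.68%. At an unadjusted p under 0.05, 39 members were lower, against 8.5% of all genes, and 2 were higher, against 8.27% of all genes. Cox8a had 315, 245, 257, 265 and 294 CPM in Dp16_2xIFNRs, against 286, 331 and 364 CPM in WT. The groups overlapped, and the log2 fold change was -0.25 ± 0.07 (edgeR adjusted p = 0.106). Uqcrq, an accessory subunit of complex III, had 125, 89.9, 93.8, 98.5 and 102 CPM in Dp16_2xIFNRs, against 111, 121 and 141 CPM in WT. There, 4 of the 5 Dp16_2xIFNRs mice lay below all WT mice and replicate 1 lay among them (log2 fold change -0.27 ± 0.10, edgeR adjusted p = 0.189). Sdhb, the iron-sulfur subunit of complex II, had 99.7, 82.9, 83.1, 83.1 and 93.5 CPM in Dp16_2xIFNRs, against 89.9, 98.7 and 109 CPM in WT (log2 fold change -0.17 ± 0.07, edgeR adjusted p = 0.228), with replicates 1 and 5 inside the WT range. The lowest fold changes in complexes I and V were those of Ndufa2 (-0.32 ± 0.13, edgeR adjusted p = 0.232) and Atp5e (-0.28 ± 0.09, edgeR adjusted p = 0.153). At the other end, Ndufc2, an accessory subunit of complex I, had -0.01 ± 0.07, and Sdha -0.04 ± 0.06. Without Dp16_2xIFNRs replicate 1, edgeR called 11 members, which were Atp5j and Atp5o higher and 9 members lower (Cox5a, Ndufs3, Atp5e, Ndufa8, Cox7b, Cox8a, Ndufa13, Uqcrq and Atp5g2), where 1.33% of all genes were then called lower. Without WT replicate 4 it called Cox8a lower besides Atp5j and Atp5o, where 1.17% of all genes were then called lower. The count of 39 became 56 without Dp16_2xIFNRs replicate 1, against 10.9% of all genes. Without Dp16_2xIFNRs replicates 3, 2 and 4 it was 18, 19 and 25, against 5.36%, 6.29% and 6.77%. Without WT replicates 3, 5 and 6 it was 26, 28 and 30, against 7.01%, 6.82% and 7.57%. In these fits the share over all genes moved in the same direction as the member count. Ndufb2, Ndufa8, Ndufs3, Cox7b and Ndufa13 were named after their values were seen.

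**Figure D3:**
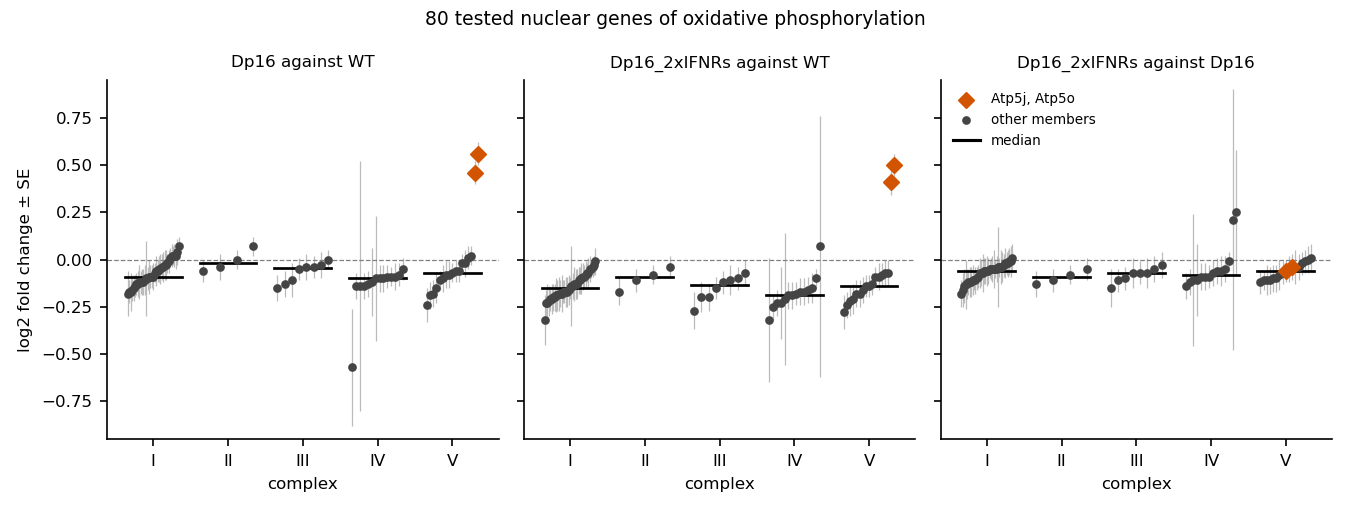
Log2 fold change of each of the 80 tested members by complex in the 3 comparisons; points are genes sorted within a complex, grey bars are SE, lines are medians, and diamonds are Atp5j and Atp5o. The diamonds stand at 0.41 to 0.56 in both comparisons with WT, while the medians of the complexes lie between -0.18 and -0.02 there.

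Between the mutant lines, Dp16_2xIFNRs mice differed from Dp16 mice in no member by edgeR, DESeq2 or limma-voom, where edgeR called 0% of all genes higher and 0.0158% lower. The median log2 fold change of Dp16_2xIFNRs against Dp16 was -0.07 over the members, with 76 of 80 below 0, and -0.01 over all tested genes. By complex, it was -0.06, -0.10, -0.07, -0.08 and -0.06 for complexes I to V. At an unadjusted p under 0.05, 2 members were lower, against 3.42% of all genes, and 0 were higher, against 6.82%. No member separated the 2 lines in either direction, where 0.258% of all genes lay wholly higher and 0.358% wholly lower. Ndufs4, an accessory subunit that is mutated in Leigh syndrome, had the lowest fold change of complex I (-0.18 ± 0.07, edgeR adjusted p = 0.469). In complex IV, Cox7a1 had the highest (0.25 ± 0.33, edgeR adjusted p = 0.799), and in complex V, Atp5mpl, a small membrane subunit, had 0.01 ± 0.07. The count of 2 became 25 without Dp16_2xIFNRs replicate 1 (6.83% of all genes) and 10 without Dp16 replicate 4 (3.77%). It became 8 without Dp16 replicate 3 (4.51%) or Dp16_2xIFNRs replicate 5 (4.64%). Without WT replicate 6 it was 6 (4.08%), and without WT replicate 2 it was 4 (3.47%). It became 1 without Dp16_2xIFNRs replicate 3 (1.35%) or 4 (3.04%) or Dp16 replicate 1 (2.76%) or 2 (2.67%). Without Dp16_2xIFNRs replicate 2 it was 0 (1.79%). The 2 comparisons with WT share the WT mice, and each mutant line stands in 2 comparisons, so the 3 sets of values are not independent.

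Complexes I, III and V were low in the same mice. Averaged over complex I genes as log2 CPM minus the WT mean, Dp16 mice had -0.237, -0.0378 and 0.026 (lowest, median and highest). Dp16_2xIFNRs mice had 0.0216, -0.263, -0.216, -0.197 and -0.0717, and WT mice -0.134, 0.0119 and 0.0897. The low values came from Dp16 replicate 4 and Dp16_2xIFNRs replicates 2, 3 and 4, while Dp16_2xIFNRs replicate 1 lay among the WT mice. In complex V without Atp5j and Atp5o, the values were -0.26, -0.0466 and -0.0108 in Dp16. They were 0.0417, -0.263, -0.252, -0.214 and -0.0566 in Dp16_2xIFNRs, against -0.0918, -0.0059 and 0.0883 in WT. The same mice were low. In complex III they had -0.229 (Dp16 replicate 4) and -0.27, -0.261 and -0.192 (Dp16_2xIFNRs replicates 2 to 4). In complex II the lowest Dp16 mouse was another, replicate 3 at -0.0925. RNAs of 76 cytosolic ribosomal proteins, which are also short and abundant, were low in the same libraries, at -0.462 in Dp16 replicate 4 and at -0.362, -0.334 and -0.313 in Dp16_2xIFNRs replicates 2 to 4. Dp16_2xIFNRs replicate 1 had -0.0131 for them, and WT mice lay between -0.145 and 0.167. Their median log2 fold change was -0.14 in Dp16 and -0.23 in Dp16_2xIFNRs against WT, with 0 genes called by edgeR and 17 and 63 lower at an unadjusted p under 0.05. In bulk tissue, fewer cells of a type and less RNA per cell cannot be told apart.

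**Figure D4:**
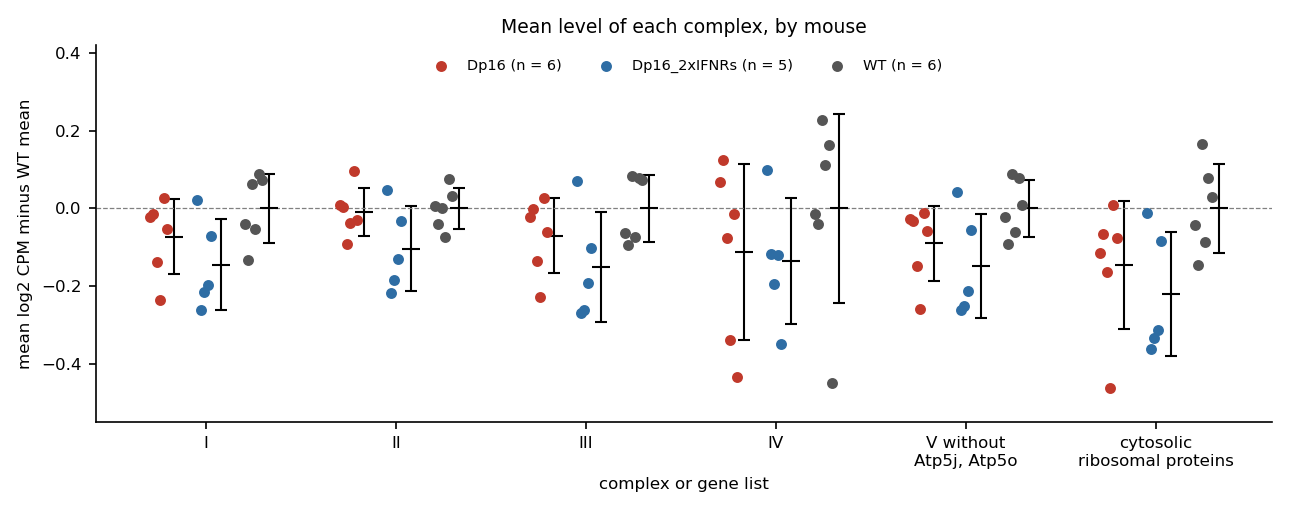
Mean over the genes of each complex, and of 76 cytosolic ribosomal protein genes, of log2 CPM minus the WT mean; each point is a mouse, bars are mean and SD, and the dashed line is the WT mean. Dp16 replicate 4 and Dp16_2xIFNRs replicates 2 to 4 lie lowest for complexes I and V and for ribosomal proteins, and in complex IV 1 library of each genotype lies at -0.349 to -0.45.

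These medians changed when a slope on gene length, fitted for each mouse, was added as a covariate. The slope came from all tested genes, members included. Its mean was 0.00863 in Dp16, 0.00431 in Dp16_2xIFNRs and -0.0122 in WT. The covariate may therefore also take up differences between genotypes, which cannot be told apart here from library differences. Member genes were short, with a median length of 952 bases (implied by the deposited counts and RPKM) against 2967 bases over all tested genes. The slope of a mouse's log2 deviation on log2 gene length, where a positive slope means relatively more reads from long genes, was -0.0222 to 0.0477 in Dp16, -0.0144 to 0.0173 in Dp16_2xIFNRs and -0.0396 to 0.00733 in WT. The highest slope of all belonged to Dp16 replicate 4 and the lowest to WT replicate 5. With the slope as a covariate, the median log2 fold change of the 80 members was 0.005 in Dp16 against WT, with 37 of 80 negative and 0 lower at an unadjusted p under 0.05, against 2.53% of all genes. By complex, that median was 0.005, 0.026, 0.032, -0.013 and 0.008 for complexes I to V (Atp5j and Atp5o included), so only that of complex IV was still negative. In Dp16_2xIFNRs against WT the median was then -0.092, with 72 of 80 negative and 15 lower at that level, against 5.45% of all genes. In Dp16_2xIFNRs against Dp16, 78 of 80 were then negative and 21 lower at that level, against 4.91% of all genes. In Dp16 against WT, 1 member was lower at that level with the series of the mouse identifier as a covariate (2.49% of all genes). The series was set here as the first digit of the later number in the identifier. A first digit of 4 occurred only in Dp16 replicates 2 and 4, so this covariate was partly confounded with genotype. With age 5 members were lower (3.41% of all genes), and with limma-trend on RPKM plus 0.1 it was 17 (5.29% of all genes). Atp5j and Atp5o were called against WT in all 36 alternatives run.

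In the libraries with little choroid plexus RNA, 1 from each genotype, 3 scarce complex IV isoforms were low, near the share over all tested genes. The choroid plexus, the epithelium that secretes cerebrospinal fluid, borders the hippocampus. Its 12 marker genes (Ttr among them) summed to 274 CPM in Dp16 replicate 6, 344 CPM in Dp16_2xIFNRs replicate 5 and 229 CPM in WT replicate 6, against 3494 to 8907 CPM in the other 14 libraries. Of the 80 tested members, 3 were lower in all 3 of these libraries than in any of the other 14, and none was higher in all 3. Over all tested genes, 2.78% were lower and 0.221% higher in this way, so the low values were not particular to the members. Cox8b, a heart and muscle form of the complex IV subunit VIII, had 0.19, 0.609 and 0.0959 CPM in the 3 libraries, from 3 to 19 counts each, against 1.49 to 5.79 CPM in the other 14. Its ubiquitous sister Cox8a had 311, 294 and 348 CPM in the 3 libraries, inside the range of its other libraries. Cox6b2, known as a testis form, had 1.02, 1.35 and 0.671 CPM (21 to 42 counts), against 1.99 to 4.04 CPM. Cox7a1 had 0.54, 0.706 and 0.543 CPM (17 to 22 counts), against 0.808 to 2.47 CPM. The median of the other 14 libraries was 19.2 times that of the 3 for Cox8b, 2.89 times for Cox6b2 and 3.02 times for Cox7a1. The complex IV mean, which includes these genes, was -0.436, -0.349 and -0.45 in the same 3 libraries. None of the 3 genes was called between genotypes (edgeR adjusted p = 0.602 to 0.975 over the 3 comparisons). In Dp16 against WT their log2 fold changes were -0.14 ± 0.66 for Cox8b, -0.10 ± 0.33 for Cox6b2 and -0.57 ± 0.31 for Cox7a1. The 3 libraries were grouped after their marker levels were seen, and the comparison carries no test.

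**Figure D5:**
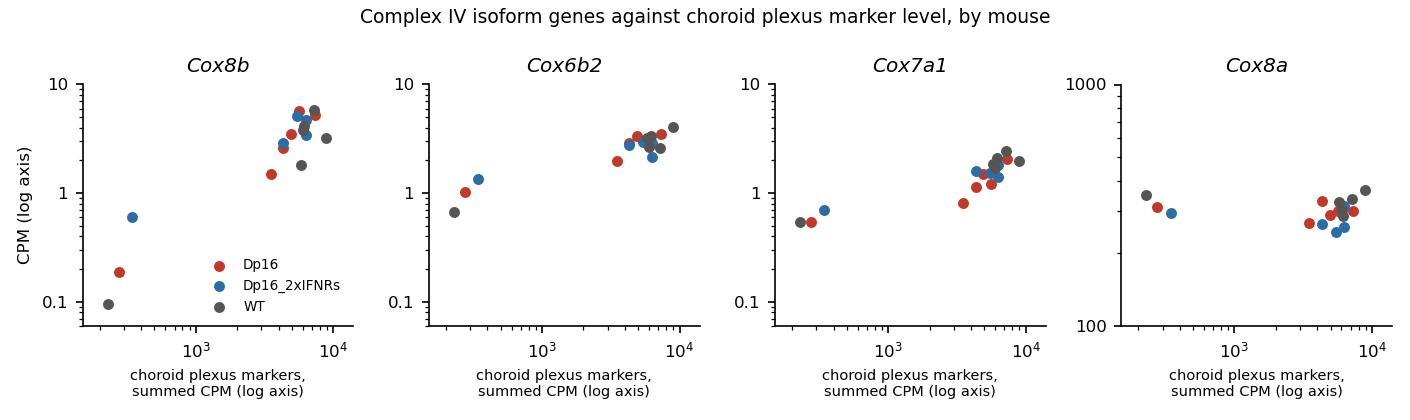
CPM of Cox8b, Cox6b2, Cox7a1 and Cox8a in each mouse against the summed CPM of 12 choroid plexus markers (both axes log), coloured by genotype. The 3 libraries at 229 to 344 marker CPM, 1 of each genotype, hold the lowest Cox8b, Cox6b2 and Cox7a1 values, while their Cox8a values of 294 to 348 CPM lie among the rest. Over all tested genes, 2.78% were lower in all 3 than in any of the other 14.

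Among regulators of the pathway, Gabpa rose in both mutant lines as a gene of the duplicated segment. It averaged 58.3 ± 2.91 CPM in Dp16 (SD, n = 6) and 59.0 ± 1.03 CPM in Dp16_2xIFNRs (n = 5), against 38.8 ± 1.40 CPM in WT (n = 6). The ranges of 54.1 to 62.0 CPM in Dp16 and 57.7 to 59.9 CPM in Dp16_2xIFNRs lay above that of 36.5 to 40.3 CPM in WT. The log2 fold change of Gabpa was 0.59 ± 0.04 in Dp16 (edgeR adjusted p = 7.85e-08) and 0.61 ± 0.05 in Dp16_2xIFNRs (edgeR adjusted p = 1.97e-07), both against WT. Members with an ETS core in their promoter window had values close to those without. Outside the segment, the 16 tested members with an ETS core had a median log2 fold change of -0.10 in Dp16 and -0.17 in Dp16_2xIFNRs against WT, and the 49 with a window but no ETS core had -0.09 and -0.16. Esrra, a nuclear receptor that acts on genes of oxidative metabolism, fell in Dp16_2xIFNRs. It averaged 45.2 ± 1.28 CPM in Dp16 (n = 6) and 42.1 ± 3.33 CPM in Dp16_2xIFNRs (n = 5), against 50.5 ± 4.12 CPM in WT (n = 6). Its log2 fold change was -0.16 ± 0.06 in Dp16 against WT (edgeR adjusted p = 0.345) and -0.26 ± 0.06 in Dp16_2xIFNRs against WT (edgeR adjusted p = 0.0383). The call of Esrra was lost in 17 of 36 alternatives, with adjusted p up to 0.137, without Dp16_2xIFNRs replicate 3. Of the 16 regulators tested, no other was called.

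Other genes of the pathway were not called. Of the 5 tested subunits or partners with other names, 0 were called. The most abundant of them, Cox4i1, had a log2 fold change of -0.14 ± 0.07 in Dp16 (edgeR adjusted p = 0.518) and -0.23 ± 0.07 in Dp16_2xIFNRs (edgeR adjusted p = 0.113), both against WT. Among assembly factors, 0 of 16 for complex I, 0 of 10 for complexes II and III, 0 of 22 for complex IV and 0 of 5 for complex V were called in any comparison. Their medians lay between -0.04 and 0.00 in Dp16 and between -0.11 and -0.02 in Dp16_2xIFNRs, both against WT. For these lists and the subunits with other names together, members lower at an unadjusted p under 0.05 numbered 0 to 2 per list in Dp16 and 1 to 3 per list in Dp16_2xIFNRs. Higher at that level was 1 assembly factor of complexes II and III in each comparison with WT. The 13 subunits encoded in mitochondrial DNA had a median log2 fold change of -0.09 in Dp16 and in Dp16_2xIFNRs against WT and -0.02 between the lines, with 0 called by edgeR and 2, 1 and 0 lower at an unadjusted p under 0.05. Some of them varied widely among WT mice, such as mt-Atp6 (23.5 to 265 CPM) and mt-Nd4l (1.14 to 34.5 CPM).

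Across the series, library totals were 30.4 to 33.1 M counts, and counts varied between mice by 14.1% (edgeR's common biological coefficient of variation). The edgeR fit called 104 genes in Dp16 against WT, 194 in Dp16_2xIFNRs against WT and 3 in Dp16_2xIFNRs against Dp16. Markers of hippocampal neurons (10 genes) summed to 977 to 1208 CPM in Dp16, 1015 to 1222 CPM in Dp16_2xIFNRs and 908 to 1062 CPM in WT. Their median log2 fold change was 0.03 in Dp16 and 0.05 in Dp16_2xIFNRs against WT, and 0.02 between the lines. In Dp16_2xIFNRs against WT, 7 were positive and 3 negative. Only Zbtb20, a transcription factor of hippocampal neurons, was called there (log2 fold change 0.53 ± 0.12, edgeR adjusted p = 0.0497), where 0.648% of all tested genes were called higher. Thalamus and habenula markers (5 of 7 tested) summed to 88.9 to 122 CPM in Dp16, 85.9 to 107 CPM in Dp16_2xIFNRs and 85.9 to 363 CPM in WT. Their median log2 fold change was -0.31 in Dp16 and -0.47 in Dp16_2xIFNRs against WT, with 0 called by edgeR. At an unadjusted p under 0.05, 0 and 1 were lower, and 1 and 0 higher. Blood markers (5 genes) summed to 33.6 to 70.4 CPM in Dp16, 24.3 to 66.5 CPM in Dp16_2xIFNRs and 37.0 to 51.5 CPM in WT. Their median was 0.35 in Dp16 against WT, 0.00 in Dp16_2xIFNRs against WT and -0.39 in Dp16_2xIFNRs against Dp16, with 0 called by edgeR. At an unadjusted p under 0.05, 0, 0 and 2 were lower, and 1, 0 and 0 higher. The medians of oligodendrocyte, astrocyte, microglia and ependyma markers lay between -0.13 and 0.02 in the 3 comparisons, with 0 called by edgeR. Choroid plexus markers (12 genes) had medians of -0.34 in Dp16 against WT, -0.08 in Dp16_2xIFNRs against WT and 0.23 between the lines. In that order, 10, 7 and 0 of the 12 were negative. Their SE were large (medians 0.80, 0.83 and 0.84), with 0 called by edgeR. The part of these cell types in the member values was not tested. In the gene annotation, 37 member symbols overlapped another gene, 11 of them on the same strand, and the strand setting of the counting is not given in the sources used here, so reads of such pairs (Atp5j with Gabpa among them) may be less certain.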

How the data were processed

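Hippocampal RNA of 17 mice was extracted with TRIzol, enriched for polyA, made into strand-specific libraries and sequenced as paired reads of 150 bases, per the labels' protocols. The submitters' processing notes name bcl2fastq, FastQC 0.11.5, HISAT2 2.1.0, SAMtools 1.5, HTSeq 0.6.1 and GRCm38. Raw counts of each gene and RPKM were deposited by the authors for every library, with 1 implied length per gene (35644 genes, largest relative spread 6.17e-14), which was used as gene length. The strand setting and the length definition are not given in the sources used here. Gene positions came from a GENCODE annotation of GRCm38 and promoter windows from RefSeq.

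Counts were fitted with edgeR 4.0.16 in R 4.3.3: filterByExpr with a minimum count of 10 (18983 genes), TMM scaling, a robust quasi-likelihood test with genotype and sex over all 17 libraries (13 residual degrees of freedom), and Benjamini-Hochberg adjustment over all tested genes. A gene was called at an adjusted p under 0.05. CPM refer to the library size after TMM scaling, and 2 was the prior count for log2 CPM. Fold changes are fitted values, their SE is the log2 fold change divided by the root of F, and medians over lists carry no test. The procedure was tested on simulated data. The members, lists and alternatives were chosen with earlier results of these data known. Named were members in the segment or called, isoform families, and in each complex the highest and lowest RPKM and fold changes (mean of at least 1 CPM).

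Alternatives were DESeq2 1.42.0 and its size factors, limma 3.58.1 (voom, and trend on RPKM plus 0.1 or 1), TMM without the segment, no filter, at least 1 CPM in 5 libraries, sex left out, covariates (age, identifier series, length slope, choroid plexus level or, by sva 3.50.0, 1 surrogate variable), the sample number as a replicate block, fits of 2 genotypes alone, a threshold of 0.1, and omission of the 3 choroid-poor libraries or of each library in turn. The labels name each sample as a separate mouse by its identifier, so p-values measure the spread between mice. Intervals and errors do not cover amplification, since the reads carry no molecular identifiers.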

Additional observations from a re-analysis of the deposited data

Results flagged for a closer look

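In 4 of 117 checks of a named member within a genotype, 1 mouse stood apart from the others by Dixon's criterion, which chance alone meets in about 1 of 20 such checks. Ndufs1 had 159 CPM in WT replicate 6, with the other WT mice at 146 to 150 CPM. Atp5b had 1031 CPM in Dp16 replicate 3, with the other Dp16 mice at 1127 to 1144 CPM. Atp5g1 had 115 CPM in Dp16_2xIFNRs replicate 1, with the others of its line at 93.0 to 99.2 CPM. Cox7a2 had 68.0 CPM in Dp16 replicate 4, with the other Dp16 mice at 80.6 to 85.0 CPM.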

How the results depend on the processing

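Atp5j and Atp5o were called higher against WT in all 36 alternatives, with log2 fold changes of 0.54 to 0.65 and 0.43 to 0.51 in Dp16 (highest adjusted p 0.000168 and 0.00303) and of 0.44 to 0.57 and 0.37 to 0.47 in Dp16_2xIFNRs (highest adjusted p 0.00244 and 0.0133). In Dp16 against WT, members called were 2 in every alternative. In Dp16_2xIFNRs against WT they were 6 with DESeq2 and 2 to 11 when each library was left out, and 2 in the other alternatives. In Dp16_2xIFNRs against Dp16 they were 0 throughout. The member median moved between -0.106 and 0.005 in Dp16 against WT, where only the length slope turned it positive, between -0.203 and -0.092 in Dp16_2xIFNRs against WT, and between -0.119 and -0.035 in Dp16_2xIFNRs against Dp16. No median of a complex moved by more than 1 SD between mice (0.0791 to 0.11). In Dp16 against WT that SD exceeded the size of each complex median, so the medians are not shown to be stable. The length slope turned the medians of complexes I, II, III and V positive in that comparison (0.005, 0.026, 0.032 and 0.008). There, without single libraries, the medians ranged from -0.106 to -0.050 in complex I (highest without WT replicate 6), -0.050 to 0.001 in complex II (without WT replicate 5), -0.073 to -0.031 in complex III (lowest without WT replicate 2, highest without WT replicate 6), -0.134 to -0.057 in complex IV (without Dp16 replicate 4) and -0.091 to -0.043 in complex V (without Dp16 replicate 3). Of the 33 named members, 5 gained a call in Dp16_2xIFNRs against WT (Cox8a and Atp5g2 with DESeq2, and these, Cox5a, Atp5e and Uqcrq without 1 library), and no call was reversed or lost.

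Genes called over the whole table moved more. In Dp16 against WT, 104 became 214 with DESeq2, and 85 to 118 without single libraries. In Dp16_2xIFNRs against WT, 194 became 632 with DESeq2, 482 at a threshold of 0.1, 329 with 1 surrogate variable, 300 with the choroid plexus covariate and 123 with only the 2 genotypes. Without single libraries it was 105 to 534, with 534 without Dp16_2xIFNRs replicate 1, 447 without WT replicate 4, 122 without Dp16_2xIFNRs replicate 2 and 105 without its replicate 3. In Dp16_2xIFNRs against Dp16, 3 became 6 with DESeq2 and 3 to 4 without single libraries. The causes were not tested.

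Samples with the same number in different genotypes were not paired by the labels. Their deviations from the group means had a mean correlation of 0.0773 (-0.216 to 0.471, 16 pairs), against -0.0141 for other pairs. With a replicate block, members called were 2, 2 and 0, and member medians -0.082, -0.150 and -0.059, in the order Dp16 against WT, Dp16_2xIFNRs against WT and Dp16_2xIFNRs against Dp16. Apart from the sample number, some mice of different genotypes shared the later number in the mouse identifier, at equal or close ages. The labels do not say what this shared number stands for, such as a litter or a cage. Pairing of mice by it was not tested.

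A p above the threshold does not show equal levels. Cox8b, Cox6b2 and Cox7a1 rest on few counts in the libraries low in choroid plexus.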
